A study of Mus musculus with 8 samples.

Results

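The genes described here are 6 transcripts that are used to recognise the endothelium of lymphatic vessels, Prox1, Lyve1, Flt4, Mmrn1, Pdpn and Reln, taken as a fixed list of 6 among the 17921 genes measured and followed through the numbered structural cell clusters of lung grafts, with T cells as background. The cells came from 8 orthotopic left lung grafts of male mice collected 1 month after transplantation without immunosuppression, and each mouse gave 1 droplet library of transcript 3′ ends. In 5 B6→B6 grafts both donor and recipient were C57BL/6 mice, and in 3 HLA→B6 grafts the donor was a C57BL/6 mouse that carried Tg(HLA-A2.1)1Enge, a transgene for a human class I histocompatibility antigen, and the recipient was a C57BL/6 mouse without it. Of 20778 annotated cells, 5514 were structural cells in 11 numbered clusters and 5071 were T cells. The question asked of the 6 genes was in which of the clusters they were found, whether they were found in the same cells, and whether their levels differed between HLA→B6 and B6→B6 grafts.

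Lymphatic endothelial cells line the vessels that return fluid and immune cells from tissues to lymph nodes, and in the lung these vessels run along airways, veins and the pleura. They descend mainly from embryonic veins, and the homeobox transcription factor Prox1 sets and maintains their identity. Lyve1 is a hyaluronan receptor that is commonly used to stain lymphatic capillaries, but it is also made by other endothelial cells and by some tissue macrophages. Flt4 encodes VEGFR-3, the receptor for the growth factors VEGF-C and VEGF-D. Mmrn1 encodes multimerin 1, a secreted glycoprotein that is also stored in platelets. Pdpn encodes podoplanin, a membrane glycoprotein that binds the platelet receptor CLEC-2 and is also made by type 1 pneumocytes and some stromal cells. Reln encodes reelin, a large secreted glycoprotein of the nervous system that lymphatic endothelium also makes.

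On the GRCm38 build, Prox1 lay at chr1:190118035-190170714 on the minus strand, Pdpn at chr4:143267431-143299564 on the minus strand and Reln at chr5:21884454-22344702 on the minus strand. Mmrn1 lay at chr6:60924976-60989378 on the plus strand, Lyve1 at chr7:110850607-110863239 on the minus strand and Flt4 at chr11:49609263-49652739 on the plus strand. The RefSeq promoter windows of Prox1, Mmrn1 and Reln (GRCm38.p6, 300 bases around a start site) are shown because these 3 genes had most of their UMIs in a single small cluster of 32 cells. Capitals mark a match to a motif of a factor family active in endothelium. Windows were matched by symbol for 5 of the 6 genes, all but Lyve1. The windows were searched on both strands. The SOX motif was AACAAT, found in 10.7% of 32851 promoter windows of this length. For NR2F2 the half-site AGGTCA was used, found in 16.3% of those windows. The GATA motif was AGATAA, found in 11.2% of all these windows. For ETS factors CGGAAG was used, found in 16.9% of the windows.
Prox1, chr1:190169466-190169765, minus strand: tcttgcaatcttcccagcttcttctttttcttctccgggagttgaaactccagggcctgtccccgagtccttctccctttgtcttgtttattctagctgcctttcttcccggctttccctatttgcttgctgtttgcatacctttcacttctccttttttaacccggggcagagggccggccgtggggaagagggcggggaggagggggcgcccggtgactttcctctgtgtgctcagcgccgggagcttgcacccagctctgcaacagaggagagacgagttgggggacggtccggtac
Mmrn1, chr6:60944067-60944366, plus strand: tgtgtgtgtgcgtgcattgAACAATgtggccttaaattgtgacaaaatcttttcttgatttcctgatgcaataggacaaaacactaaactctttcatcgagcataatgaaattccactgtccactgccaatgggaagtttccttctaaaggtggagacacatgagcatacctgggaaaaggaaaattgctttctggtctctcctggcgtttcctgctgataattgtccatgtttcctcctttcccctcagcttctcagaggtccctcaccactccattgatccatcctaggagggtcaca
Reln, chr5:22344656-22344955, minus strand: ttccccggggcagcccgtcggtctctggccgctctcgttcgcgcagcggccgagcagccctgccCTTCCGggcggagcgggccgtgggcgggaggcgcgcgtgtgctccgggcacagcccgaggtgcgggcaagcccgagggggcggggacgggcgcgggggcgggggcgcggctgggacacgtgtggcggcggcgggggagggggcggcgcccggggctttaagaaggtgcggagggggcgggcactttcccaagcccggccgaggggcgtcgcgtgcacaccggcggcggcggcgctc
The Mmrn1 window held the SOX letters 231 bases before the start site, and the Reln window held the ETS letters on its reverse strand 186 bases before the start site. Neither of the 2 Prox1 windows held any of the 4 motifs. These matches are letters in a window and were not measured as binding sites.

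Several features of the cells bear on all that follows. The 11 clusters held between 31 and 2364 cells. Clusters 0, 5 and 9 carry endothelial names in the deposited annotation (MHC II+, Vcam1+ and Prox1+ endothelial cells), and these 3 are called the endothelial clusters here. Clusters 1 and 2 carry epithelial names, but their summed level of 8 pan-endothelial markers was 13106 and 19294 CPM (UMIs scaled to a total of 1000000 UMIs in the cluster) against 15794 CPM in cluster 0, 8525 CPM in cluster 9 and 135 CPM in T cells, so they are called by number. Cluster 7, also named epithelial, held all 7 platelet markers at a summed 40049 CPM. Mice contributed between 103 and 1998 structural cells, and the median depth per cell ranged from 1356 to 1948 UMIs over the 8 libraries. In all, 1014 cells shared a barcode with a cell of another library, and these pairs linked HLA→B6 replicate 2 with replicates 1 to 3 of B6→B6. A smaller excess joined HLA→B6 replicate 1 to B6→B6 replicate 1, with 19 shared barcodes against 9.29 expected by chance, and an alternative counted it among the linked libraries. No cluster 9 cell shared a barcode and none was called a doublet, whereas cluster 6 had 47 doublet calls among 136 cells. Intervals given below are exact binomial (Clopper-Pearson) intervals and cover counting error only.

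Cluster 9, the smallest endothelial cluster with 32 cells, held nearly all of the Prox1 signal of the grafts and was the only cluster in which several of the 6 genes were regularly found in the same cell. Prox1 had 34 UMIs in the whole data set, and 27 of them (79.4%) were in cluster 9, where 12 of 32 cells had a Prox1 UMI (37.5%, interval 21.1% to 56.3%). Outside cluster 9, single Prox1 UMIs were found in 3 alveolar macrophages, 2 T cells, 1 B cell and 1 cell of cluster 4, and none of these cells had a UMI of another of the 6 genes or of Ccl21a. The Prox1 level was 444 CPM in cluster 9 and 0.219 CPM in T cells. Against clusters 0, 1, 2 and 5, in which no Prox1 UMI was counted, 3 counts over the cluster set the bound, and the level in cluster 9 was at least 404-fold, 205-fold, 158-fold and 64.1-fold higher. Since the clusters were drawn from these same counts, all levels by cluster are descriptions without a test.

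Reln followed the same distribution. It had 52 UMIs in all, 34 of them (65.4%) in cluster 9, where 17 of 32 cells (53.1%) had a UMI and the level was 560 CPM. The next level was 2.90 CPM, in plasma cells. Cluster 0 had 1 Reln UMI, and the ratio of cluster 9 to cluster 0 was 1526 with a counting interval of 256 to 62019.

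Mmrn1 was the gene found in the largest share of cluster 9 cells among the 6, in 28 of 32 (87.5%), with 116 of its 150 UMIs (77.3%) and a level of 1909 CPM. A second place of Mmrn1 was cluster 7, the cluster with platelet markers, with 13 UMIs in 13 of 92 cells and 150 CPM. The ratio of cluster 9 to cluster 7 was 12.7 (counting interval 7.14 to 24.6). The other clusters had between 0 and 3 Mmrn1 UMIs each, and T cells had 2, at 0.219 CPM.

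Flt4 was found at a low level in much of the endothelium and at a higher level in cluster 9. It had 27 UMIs in 13 of 32 cluster 9 cells (40.6%) at 444 CPM, 98 UMIs in 94 of 2364 cluster 0 cells (3.98%) at 35.9 CPM, 43 UMIs at 31.0 CPM in cluster 1 and 27 UMIs at 25.4 CPM in cluster 2. Cluster 5 had 4 Flt4 UMIs at 9.25 CPM, and T cells had 0.437 CPM. The ratio of cluster 9 to cluster 0 was 12.4 (counting interval 7.76 to 19.1) and that to cluster 5 was 48.0 (interval 16.7 to 189). HLA→B6 replicate 1 gave 18 of the 27 cluster 9 UMIs, and without it the level was 230 CPM and the ratio to cluster 0 was 5.90. Because cluster 0 was so much larger, it held 40.2% of all Flt4 UMIs and cluster 9 held 11.1%.

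Pdpn was found in several unlike cell types. Its level was 197 CPM in cluster 9, with 12 UMIs in 9 of 32 cells (28.1%), 103 CPM in cluster 8, with 12 UMIs in 6 of 68 cells, and 66.6 CPM in cluster 3, with 46 UMIs in 28 of 345 cells. Cluster 8 held epithelial markers of several kinds. Type 1 pneumocyte genes were at a summed 4423 CPM, type 2 genes at 40267 CPM and the ciliated cell marker Ccdc153 at 1213 CPM. Ccdc153 was among the 10 genes with the highest fold over the other structural cells, and no listed type 1 or type 2 gene was. Which of these cells held the Pdpn UMIs was not tested. Cluster 3 is the cluster of fibroblasts and smooth muscle cells. The ratio of cluster 9 to cluster 8 had a counting interval of 0.786 to 4.65, so their order was not resolved. Alveolar macrophages had most of the Pdpn UMIs, 249 of 345 (72.2%), in 178 of 2494 cells (7.14%) at 26.7 CPM. Clusters 0, 2 and 5 had 1 Pdpn UMI each.

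Lyve1 was found in a larger share of structural cells outside cluster 9 than any other member, 43.3% against 3.39% for Flt4, the next. Of 6694 Lyve1 UMIs, cluster 0 held 3612 (54.0%), cluster 1 held 1068, cluster 5 held 809 (12.1%) and cluster 9 held 84 (1.25%). The level was highest in cluster 5 (1870 CPM), followed by cluster 9 (1382 CPM), cluster 0 (1325 CPM) and cluster 1 (770 CPM). Cluster 9 and cluster 0 did not differ beyond counting error, with a ratio of 1.04 (interval 0.830 to 1.30). The pooled level of cluster 9 was below that of cluster 5 at a ratio of 0.739 (interval 0.583 to 0.926). These intervals leave out the spread between cells and mice, so this order is not settled. Clusters 3 and 2 had 370 and 258 CPM, and T cells had 2.73 CPM. Without HLA→B6 replicate 1 the pooled Lyve1 level was 172 CPM in cluster 3 and 1.52 CPM in T cells. The 84 UMIs of cluster 9 were in 16 positive cells. A single cluster 9 cell of B6→B6 replicate 5 held 25 of them and a cell of B6→B6 replicate 3 held 16, and the other 14 had 3.07 UMIs each on average, against 2.59 in positive cells of cluster 0 and 4.02 in those of cluster 5.

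**Figure D1:**
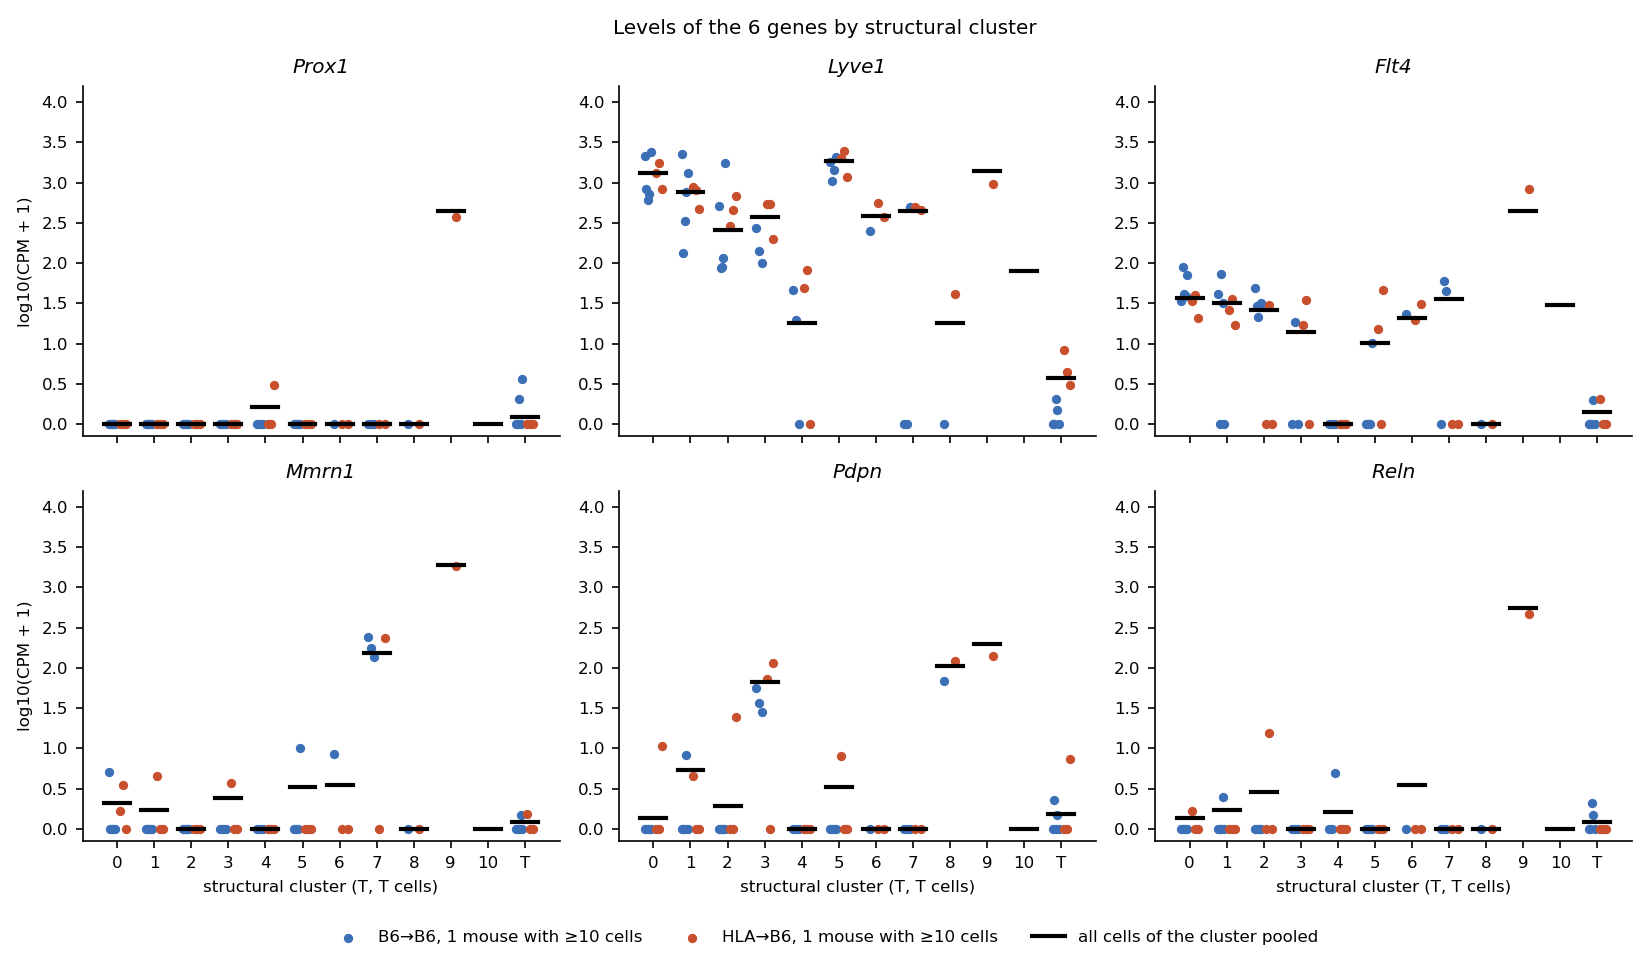
Level of the 6 genes in each numbered structural cluster and in T cells, on a log10(CPM + 1) axis. Black lines are all cells of a cluster pooled and points are mice with at least 10 cells of it (blue, B6→B6; red, HLA→B6). Prox1, Mmrn1 and Reln stand out in cluster 9, with 444, 1909 and 560 CPM, while Lyve1 reaches 1870 CPM in cluster 5, 1325 CPM in cluster 0 and 770 CPM in cluster 1.

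The order of the Lyve1 levels was checked within mice with at least 10 cells of each cluster. Cluster 5 was above cluster 0 in 6 of 7 mice, with a median ratio of 1.40, and the exception was B6→B6 replicate 1. Cluster 0 was above cluster 1 in 6 of 8 mice (median ratio 1.79) and above cluster 2 in 8 of 8 mice (median ratio 4.38). Cluster 1 was above cluster 3 in 6 of 6 mice (median ratio 2.37), whereas clusters 3 and 2 had no steady order, with cluster 3 higher in 3 of 6 mice. For Flt4, cluster 0 was above cluster 1 in 6 of 8 mice and above cluster 2 in 7 of 8 mice. Only HLA→B6 replicate 1 had 10 cluster 9 cells, so the place of cluster 9 in these orders rests on cells pooled over mice.

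Outside the structural cells, Lyve1 UMIs were few and unevenly spread. Alveolar macrophages had 112 Lyve1 UMIs in 25 of 2494 cells, and none of these 25 cells had a UMI of another member. The cells named leukocyte had 69 Lyve1 UMIs in 40 of 1390 cells, and 1 of them had a UMI of another member. HLA→B6 replicate 1 gave 60 of these 69 UMIs, and the leukocyte level of 63.1 CPM was 19.3 CPM without it. Monocytes had 83 Lyve1 UMIs at 16.9 CPM, 75 of them from HLA→B6 replicate 1, and 3.43 CPM without that library.

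Cells with at least 2 of the 5 members other than Lyve1 were almost all in cluster 9, a cluster drawn from these same counts. In cluster 9, 24 of 32 cells (75.0%) had UMIs of at least 2 of Prox1, Flt4, Mmrn1, Pdpn and Reln, with 15 cells having 3 of them, 3 cells having 4 and 1 cell having all 5. Another 7 cluster 9 cells had 1 of these genes, as did 499 cells outside it, and 1 cluster 9 cell had none. Outside cluster 9, 1 of 20746 cells had 2, an alveolar macrophage of B6→B6 replicate 5 with 1 Flt4 and 1 Pdpn UMI. None of the 2364 cells of cluster 0 had 2, which allows a share of up to 0.127%, and none of the 248 cells of cluster 5 had 2, which allows up to 1.21%. Among T cells, 15 of 5071 had a single member and none had 2.

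Outside cluster 9, Lyve1-positive cells rarely had another of the genes. All 16 Lyve1-positive cells of cluster 9 had at least 1 of the other 5 genes, and 13 had at least 2. This was not particular to Lyve1-positive cells, since of all 32 cluster 9 cells 1 had none of the 5 genes and 24 had at least 2. Of the 2540 Lyve1-positive cells outside cluster 9, 116 (4.57%) had 1 of the other 5 genes and none had 2. Most of those in cluster 0 came from Flt4, which at an equal 500 UMIs per cell was found in 1.98% of Lyve1-positive and 1.83% of Lyve1-negative cluster 0 cells. In cluster 1 the same shares were 1.58% and 1.51%, and in cluster 2 they were 2.10% and 1.25%.

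**Figure D2:**
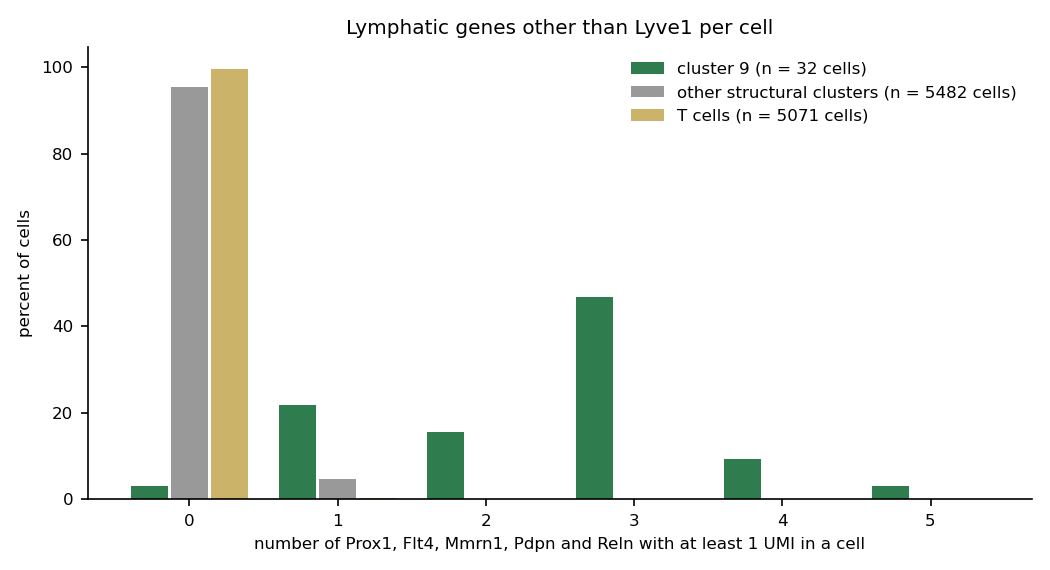
Share of cells (percent) by how many of Prox1, Flt4, Mmrn1, Pdpn and Reln had a UMI in the cell, for cluster 9 (32 cells), the other structural clusters (5482 cells) and T cells (5071 cells). In cluster 9, 75.0% of cells had 2 or more, and no cell of the other structural clusters or of the T cells did.

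Within cluster 9, the other genes were found both in cells with and in cells without a Prox1 UMI. Of the 12 cells with a Prox1 UMI, 7 had Lyve1, 7 had Flt4, 9 had Mmrn1, 7 had Reln and 11 had Ccl21a, the chemokine with which lymphatic endothelium attracts dendritic cells and T cells. Of the 20 cells without a Prox1 UMI, 9 had Lyve1, 6 had Flt4, 19 had Mmrn1, 10 had Reln and 19 had Ccl21a. The largest contrast was in Pdpn, found in 1 of 12 Prox1-positive cells (8.33%, interval 0.211% to 38.5%) and in 8 of 20 Prox1-negative cells (40.0%, interval 19.1% to 63.9%), and these intervals overlap. The Prox1-positive cells were the deeper ones, with a median of 1998.5 UMIs against 1009, and the part of depth in which cells showed a Prox1 UMI was not tested. In the 5482 cells of the other structural clusters, 43.3% had Lyve1, 3.39% had Flt4 and 0.365% had Mmrn1.

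Individual cells showed the range. A B6→B6 replicate 4 cell with 3562 UMIs had all 6 genes, with 5 Prox1, 4 Lyve1, 1 Flt4, 6 Mmrn1, 1 Pdpn and 2 Reln UMIs beside 247 Ccl21a UMIs. An HLA→B6 replicate 1 cell with 7561 UMIs had 5 Prox1, 5 Flt4, 5 Mmrn1 and 4 Reln UMIs and 512 Ccl21a UMIs but no Lyve1 UMI. A B6→B6 replicate 3 cell with 1589 UMIs had none of the 6 genes and no Ccl21a, but 14 UMIs of Cldn5, the endothelial tight junction claudin.

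**Figure D3:**
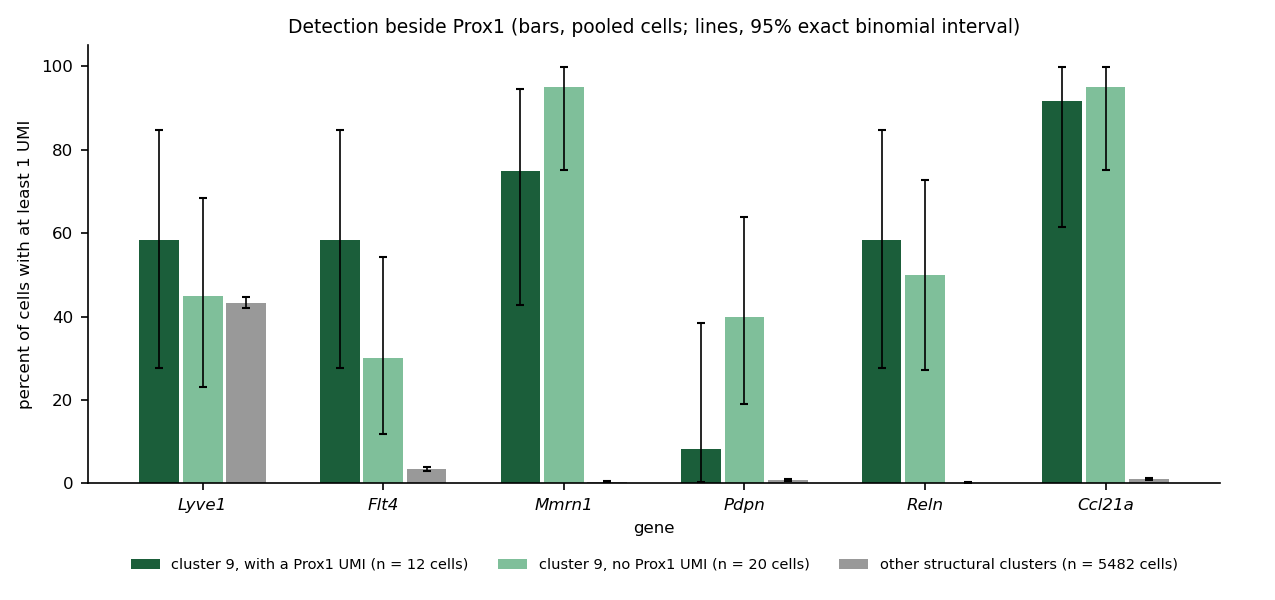
Share of cells (percent, with exact 95% intervals) that had a UMI of each other member and of Ccl21a, for cluster 9 cells with Prox1 (12 cells), cluster 9 cells without Prox1 (20 cells) and the other structural clusters (5482 cells). Mmrn1 was found in 9 of 12 and 19 of 20 cluster 9 cells against 0.365% of other structural cells.

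The name of cluster 9 was checked against genes outside the list. All 8 pan-endothelial markers had UMIs there, B cell and mesothelial markers had none, and 1 of 7 fibroblast markers had a UMI. Of 22 further lymphatic genes, 21 had a UMI in cluster 9, and Ackr4 was at 0. A single UMI is a low bar, which 5 of 6 T cell markers also passed. With no share over all genes beside it, this count alone does not mark the cells as lymphatic. Ccl21a had 3123 of its 3404 UMIs there (51398 CPM), although reads of this chemokine can be shared with near-identical Ccl21 copies, so its count is uncertain. Nts, the neurotensin precursor, had 61 of its 67 UMIs there (1004 CPM). The venous and lymphatic regulator Nr2f2 and the transcription factor Tbx1 were both at 510 CPM, and Maf at 806 CPM. The tight junction gene Cldn11 had 8 UMIs in the whole data set, all in cluster 9. T cell markers were also present, 5 of 6 at a summed 362 CPM, and 2 of 7 markers of Lyve1-positive interstitial macrophages were at a summed 82.3 CPM.

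Across 21 clusters and cell types, the genes whose level pattern was most like that of each member differed between the members. Over log2(CPM + 10), Prox1 was most like Nts (Pearson r = 0.998), Reln (0.996) and Ccl21a (0.955), and Reln most like Nts (0.994). Lyve1 was most like the water channel gene Aqp1 (0.976), the endothelial receptor gene Tie1 (0.976) and Dock6 (0.970). Flt4 was most like Zfp521 (0.963), Pard6g (0.930) and Zfp248 (0.895). Mmrn1 was most like Cryz (0.914), Hist2h3c2 (0.893) and Clca3a1 (0.879), all of which had their 2 highest levels in clusters 9 and 7. For Cryz and for Hist2h3c2 these levels rest on 2 UMIs in cluster 9 and 1 UMI in cluster 7, and for Clca3a1 on 10 and 6 UMIs. Pdpn was most like Prkar1b (0.933), Tnc (0.923) and Tsku (0.922). Among the members themselves, r was 0.351 between Prox1 and Lyve1 and 0.782 between Lyve1 and Flt4. These values describe 21 points that share libraries and differ in cell number and depth. Outside cluster 9, Prox1 was at most 0.619 CPM and Reln at most 2.90 CPM, below the 10 CPM added. Their r values are therefore set almost wholly by cluster 9, and any gene high there alone scores high. Such values do not measure whether genes were found in the same cells.

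The partners of the 6 genes were spread over several clusters. The VEGFR-3 ligand genes had no UMI in cluster 9, with Vegfc at 280 CPM in cluster 5 and 103 CPM in cluster 0 and Vegfd at 190 CPM in cluster 3. Flt1, the gene for VEGFR-1, was at 571 CPM in cluster 5 and had no UMI in cluster 9, whereas Kdr, the gene for VEGFR-2, was at 944 CPM in cluster 2 and 362 CPM in cluster 9. Angpt2, a ligand of the Tie receptors, was highest in cluster 9 at 362 CPM. Clec1b, the gene for the podoplanin receptor CLEC-2, was at 3007 CPM in cluster 7, the cluster with platelet markers, and had no UMI in cluster 9. The reelin receptor genes Lrp8 and Vldlr had no UMI in cluster 9, and Vldlr was highest in cluster 3 at 37.6 CPM.

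Comparing HLA→B6 with B6→B6 grafts, the 6 genes gave no difference that passed the threshold in the counts of all structural cells summed per mouse. With edgeR's quasi-likelihood test and Benjamini-Hochberg adjustment over 8109 genes, 0.604% of genes were called at an adjusted p under 0.05, and 0 of the 4 members with enough counts, with 0 of 4 at an unadjusted p under 0.05. DESeq2 also called none of the members, with 1 of 6 at an unadjusted p under 0.05. The log2 difference (HLA→B6 minus B6→B6) was 0.10 (SE 0.49) for Lyve1, 0.13 (SE 0.28) for Flt4, 0.28 (SE 0.85) for Pdpn and −1.02 (SE 0.50) for Mmrn1, whose adjusted p in edgeR was 0.654. Prox1 and Reln had too few counts to enter. Fewer cells of a type and less RNA per cell cannot be told apart in such sums.

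Markers of other cell types also differed in the structural sums. Of 7 markers of Lyve1-positive interstitial macrophages, 2 could be tested and 1 rose, the complement gene C1qa (edgeR adjusted p = 0.0189). It had no UMI in any B6→B6 mouse and 81, 101 and 28 UMIs in the HLA→B6 mice, at least 63.6-fold higher over the groups at a floor of 3 counts. The summed level of that list was 0 to 104 CPM in B6→B6 and 74.4 to 155 CPM in HLA→B6 mice. Of these sums, C1qa alone gave 28.7, 112 and 33.1 CPM in HLA→B6 replicates 1 to 3, so they do not show a rise of the other markers. Cluster 1, which held 1068 Lyve1 UMIs, also held 125 of the 210 C1qa UMIs. Beside C1qa, the genes C1qb, Ms4a7, Aif1 and Mpeg1 were among its 10 genes with the highest fold over the other structural cells. Of the 7 markers of Car4+ capillaries edgeR called none, while DESeq2 called Car4, Ednrb and Fibin, at differences from −1.35 (Car4) to −3.17 (Fibin), with a summed level of 965 to 3184 CPM in B6→B6 and 692 to 1556 CPM in HLA→B6 mice. The type 1 pneumocyte marker Emp2 differed by −1.80 and passed in DESeq2 only. The part of these markers in the values of the 6 genes was not tested.

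Lyve1 varied more between mice of a group than between the groups. In cluster 0 its level was 2146, 840, 613, 716 and 2378 CPM in B6→B6 replicates 1 to 5 and 1319, 1761 and 838 CPM in HLA→B6 replicates 1 to 3. The means were 1339 ± 851 (SD, n = 5) and 1306 ± 462 CPM (SD, n = 3), and the HLA→B6 range lay inside the B6→B6 range. B6→B6 replicates 1 and 5 were high and replicates 2, 3 and 4 were low, a split that did not follow the linked libraries. The fit within cluster 0 called 0.686% of genes and gave Lyve1 a log2 difference of 0.15 (SE 0.38), with an adjusted p of 0.983 in edgeR.

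In cluster 5 the Lyve1 level was 1817, 1052, 1443 and 2075 CPM in B6→B6 replicates 1 to 4 and 2026, 2444 and 1173 CPM in the HLA→B6 mice. B6→B6 replicate 5 had fewer than 10 such cells and was left out. The groups overlapped, and the log2 difference was 0.30 (SE 0.27, edgeR adjusted p = 0.559) in a fit that called 9.02% of genes. In cluster 1 the fit called 1.02% of genes and Lyve1 differed by −0.23 (SE 0.51, edgeR adjusted p = 1.00), and in cluster 2 it called 0.243% and Lyve1 differed by 0.27 (SE 0.89, edgeR adjusted p = 0.955).

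The largest Lyve1 difference among the clusters tested was in cluster 3, the fibroblasts and smooth muscle cells, and it did not pass the threshold. The level was 273, 141 and 100 CPM in B6→B6 replicates 1, 3 and 4 and 542, 545 and 197 CPM in the HLA→B6 mice, so HLA→B6 replicate 3 lay below B6→B6 replicate 1. The log2 difference was 1.58 (SE 0.50, edgeR adjusted p = 0.198) in a fit that called 0.317% of genes, and the adjusted p of DESeq2 was 0.566. Cluster 3 also held pan-endothelial markers at a summed 4832 CPM, and their part in its Lyve1 level was not tested. In cluster 4, in which no gene was called (0%), Lyve1 differed by 1.24 (SE 2.07). Over 6 single clusters, 6 pairs of member and cluster could be tested in edgeR, all of them Lyve1, and 0 were called, with 1 at an unadjusted p under 0.05. DESeq2 tested 28 pairs over 7 clusters and called none, with 1 at an unadjusted p under 0.05.

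**Figure D4:**
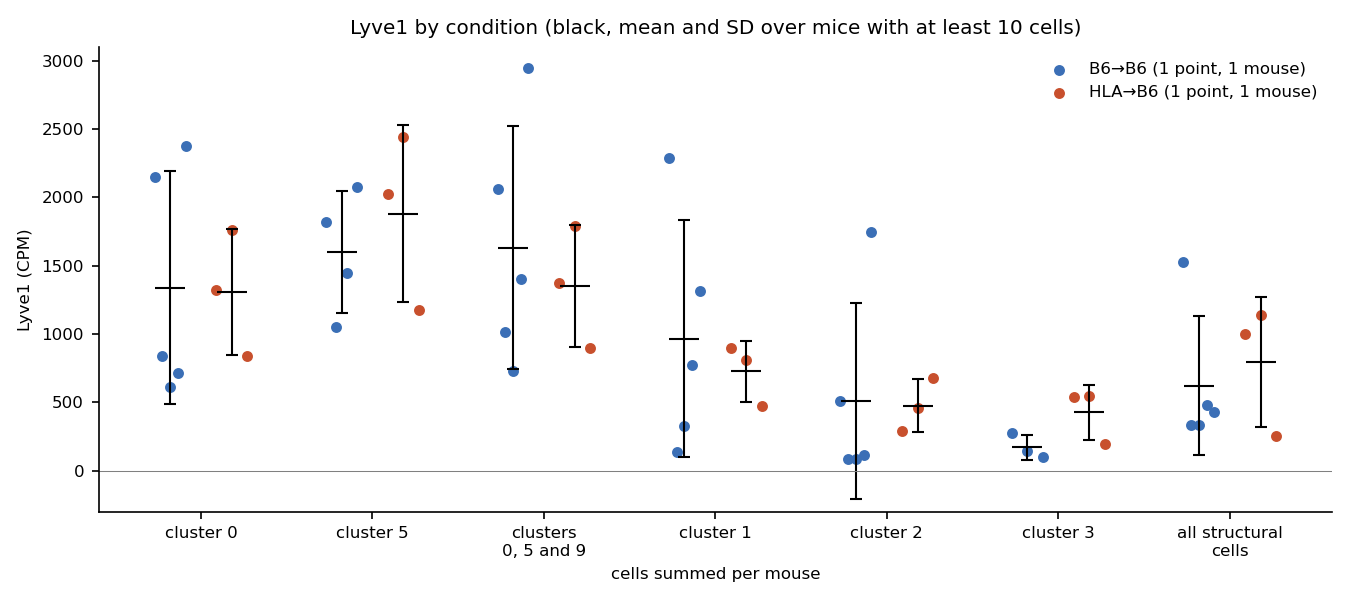
Lyve1 level in CPM for each mouse with at least 10 cells, by cells summed and group, with the mean and SD in black. The groups overlap in each set of cells shown, and in cluster 0 the means are 1339 CPM in B6→B6 and 1306 CPM in HLA→B6.

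The share of cells with a Lyve1 UMI was compared at an equal 500 UMIs per cell, and no difference passed the threshold. In cluster 0 it was 39.1% ± 17.2 (SD, n = 5; range 23.1% to 57.9%) in B6→B6 and 42.7% ± 8.68 (SD, n = 3; range 34.1% to 51.4%) in HLA→B6, a difference of 3.59 percentage points (two-sided exact permutation p = 0.75, adjusted over 3 comparisons 0.946). In cluster 5 it was 53.9% ± 8.80 (n = 4) and 55.1% ± 13.1 (n = 3), a difference of 1.26 points (exact permutation p = 0.80, adjusted 0.946). The T cell background of Lyve1 was 0 to 1.08 CPM in the B6→B6 mice and 2.12 to 7.40 CPM in the HLA→B6 mice. These levels rest on 0, 0, 1, 1 and 0 UMIs in B6→B6 and 14, 8 and 1 UMIs in HLA→B6. The part of this background in the structural values was not tested.

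Prox1-positive cells were too few for a comparison of much precision. There were 3 of 323, 0 of 134, 1 of 744, 3 of 1137 and 0 of 103 structural cells in B6→B6 replicates 1 to 5 and 3 of 1998, 2 of 696 and 1 of 379 in HLA→B6 replicates 1 to 3. The shares were 0.265% ± 0.387 (SD, n = 5) and 0.234% ± 0.0734 (SD, n = 3), a difference of −0.0316 points (two-sided exact permutation p = 0.982). The HLA→B6 mice lay within the range of the B6→B6 mice. For cells with Prox1 and another member the shares were 0.203% ± 0.257 and 0.146% ± 0.144 (exact permutation p = 0.857, n = 5 and 3, adjusted over 2 comparisons 0.982).

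In the summed endothelial clusters, Mmrn1 was lower in HLA→B6 grafts by an amount that passed the threshold only under some of the settings tried. Its level was 56.2, 92.3, 38.4, 121 and 239 CPM in B6→B6 replicates 1 to 5 and 25.1, 6.88 and 40.3 CPM in HLA→B6 replicates 1 to 3. The groups overlapped, since HLA→B6 replicate 3 lay above B6→B6 replicate 3. The log2 difference was −1.80 (SE 0.48, edgeR adjusted p = 0.119) in a fit of 4888 genes that called 0.675%. None of the 3 members tested there passed in edgeR, with 1 at an unadjusted p under 0.05, and DESeq2 gave Mmrn1 −2.02 with an adjusted p of 0.137. Without B6→B6 replicate 3 the difference was −2.15 with an edgeR adjusted p of 0.0253, without a filter on low counts it was −1.72 (0.000963), and with the linked libraries as a block it was −2.50 (0.00161). With HLA→B6 replicate 1 also counted as linked, the same block gave −1.47 with an edgeR adjusted p of 0.0961, so that call rests on which libraries are taken as linked.

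Nearly all Mmrn1 UMIs of these sums came from cluster 9. Cluster 9 supplied 116 of the 120 Mmrn1 UMIs. Its share of endothelial cells was 2.53%, 1.85%, 1.10%, 5.26% and 4.00% in the B6→B6 mice. In the HLA→B6 mice it was 0.756%, 0.503% and 0.901%, without overlap. These shares rest on only 6, 1, 4, 7 and 1 cluster 9 cells in B6→B6 and 10, 2 and 1 in HLA→B6. Clusters 1 and 2, which also held pan-endothelial markers, are not in this count of endothelial cells, and the share with them added was not tested. Of all structural cells, cluster 9 was 0.538% to 1.86% in the B6→B6 mice and 0.264% to 0.501% in the HLA→B6 mice. Cluster 0 made up 53.4% to 92.6% of endothelial cells in B6→B6 and 86.5% to 94.2% in HLA→B6. Its part in the cluster 9 shares was not tested. The 239 CPM of Mmrn1 in B6→B6 replicate 5 was 6 UMIs from 1 cell. With cluster 9 taken out, Mmrn1 was between 0 and 5.30 CPM in every mouse and could not be tested. Among cluster 9 cells alone, pooled over mice, Mmrn1 was at 1992 CPM in 19 B6→B6 cells and 1799 CPM in 13 HLA→B6 cells. Lyve1 and Flt4 in the endothelial sums differed by −0.16 (SE 0.36, edgeR adjusted p = 0.994) and 0.22 (SE 0.32, adjusted p = 0.978).

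**Figure D5:**
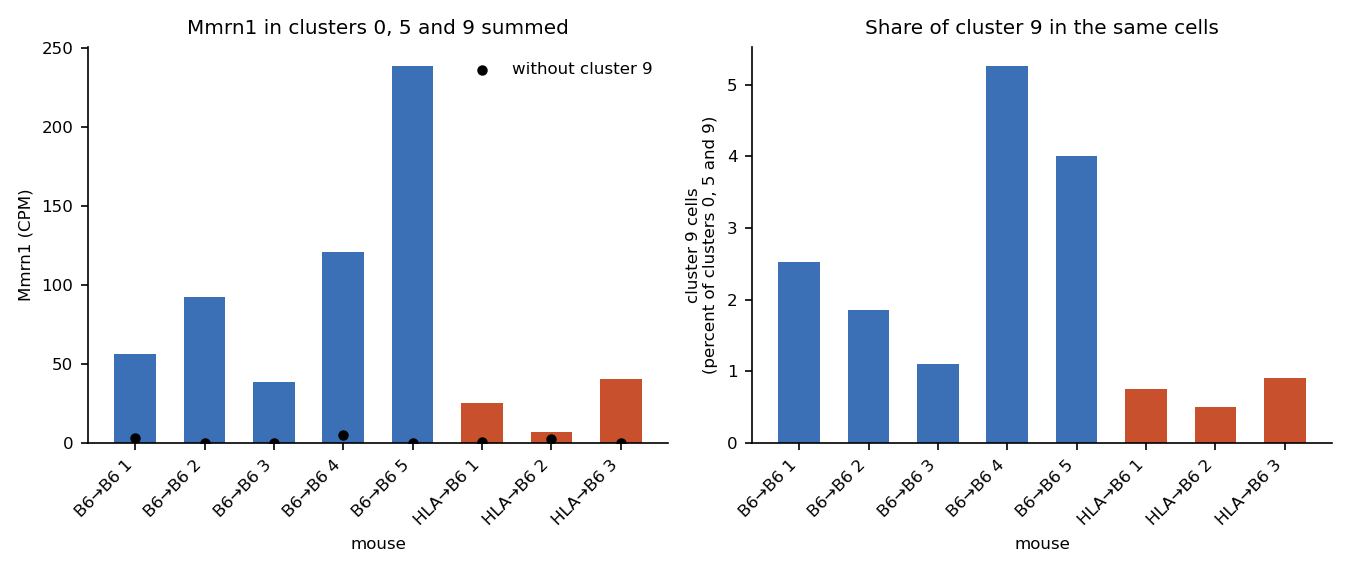
Mmrn1 level in the summed endothelial clusters of each mouse in CPM (left; black points, without cluster 9) and cluster 9 cells as a percent of endothelial cells (right; blue, B6→B6; red, HLA→B6). The B6→B6 mice range from 38.4 to 239 CPM and the HLA→B6 mice from 6.88 to 40.3 CPM. The cluster 9 shares of the groups do not overlap, but they rest on 1 to 10 cluster 9 cells per mouse.

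Within cluster 9, Flt4 and Reln differed in the share of positive cells between the groups in opposite directions. Flt4 UMIs were in 2 of 6, 0 of 1, 1 of 4, 1 of 7 and 0 of 1 cells of B6→B6 replicates 1 to 5 and in 6 of 10, 2 of 2 and 1 of 1 cells of the HLA→B6 mice, 21.1% and 69.2% of the pooled cells. Reln UMIs were in 3 of 6, 1 of 1, 3 of 4, 6 of 7 and 1 of 1 cells of the B6→B6 mice and in 3 of 10, 0 of 2 and 0 of 1 cells of the HLA→B6 mice, 73.7% and 23.1% of the pooled cells. Neither gene's shares overlapped between the groups, which was also true of 0.913% of 767 genes in the direction of Flt4 and 1.17% in the direction of Reln. In 7 of the 8 mice fewer than 10 cells stand behind a share, so these are descriptions without a test. Prox1 was found in 36.8% and 38.5% of the cells, Mmrn1 in 84.2% and 92.3%, and Lyve1 in 57.9% and 38.5%, and the median depth was 1067 and 1226 UMIs per cell.

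Of 22 listed lymphatic genes other than the members, 13 could be tested in the structural sums and 9 in the endothelial sums. In the structural sums none rose and 1 fell, against 0.419% and 0.185% of all genes, 11 of 13 were below 0, and the median log2 difference was −0.29 against −0.01 over all genes. In the endothelial sums none rose and 1 fell, against 0.491% and 0.184% of all genes, 8 of 9 were below 0, and the median was −0.33 against −0.01. Only genes past the filter on low counts enter these signs and medians. A gene can pass it through its level in a single group, and the part of this in the signs and medians was not tested. DESeq2 called 2 of 22 in the structural and 1 of 22 in the endothelial sums. The gene that fell in both was Fgl2, which encodes a fibrinogen-like protein and had 922 CPM in cluster 9, 169 CPM in cluster 5 and 2.93 CPM in cluster 0.

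In the endothelial sums Fgl2 was at 56.2, 132, 76.8, 218 and 119 CPM in the B6→B6 mice and 14.7, 9.18 and 16.1 CPM in the HLA→B6 mice, without overlap. The value of B6→B6 replicate 5 comes from 25 endothelial cells and that of HLA→B6 replicate 3 from 111. Fgl2 fell by 3.04 on the log2 scale (SE 0.47, edgeR adjusted p = 0.00350), and in the structural sums it fell by 1.61 (SE 0.28, edgeR adjusted p = 0.0263). There the groups overlapped, with 8.16 CPM in B6→B6 replicate 5 and 5.90 to 14.4 CPM in the HLA→B6 mice. The structural call was lost without B6→B6 replicate 2, 3 or 4 or HLA→B6 replicate 1 or 2, with differences of −1.43 to −1.70 and edgeR adjusted p from 0.0567 to 0.191, and the endothelial call was lost when cluster 9 was taken out (−3.09, adjusted p = 0.0554). Cluster 5, the other place of Fgl2, was 6.34% to 41.4% of endothelial cells in the B6→B6 mice and 5.28% to 12.6% in the HLA→B6 mice, and the part of these shares in the Fgl2 level was not tested. The vein markers Vcam1 and Amigo2 also fell in these sums, by 2.58 (edgeR adjusted p = 0.00350) and by 2.09 (adjusted p = 0.0269), among 5 tested. So did Emp2, by 2.72 (edgeR adjusted p = 0.0314), the 1 of 7 type 1 pneumocyte markers with enough counts, and the summed level of that list was 82.6 to 239 CPM in the B6→B6 and 83.3 to 89.5 CPM in the HLA→B6 mice. The part of these markers in the Fgl2 and Mmrn1 values was not tested. Ccl21a differed by −2.97 (SE 0.99, edgeR adjusted p = 0.292), with 283 to 5906 CPM in B6→B6 and 18.4 to 778 CPM in HLA→B6. Gata2, Sox18 and Gja4, the other abundant genes of the list, differed by −0.33, −0.06 and −0.30 in the endothelial sums, and none passed.

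None of the partner genes was called by edgeR in either sum. Of the VEGF-C and angiopoietin genes, 0 of 11 passed in the structural sums, with 4 at an unadjusted p under 0.05, and 0 of 8 in the endothelial sums, with 1, and the median log2 differences were 0.05 and 0.09. DESeq2 called none of these in the structural sums and 1 in the endothelial sums, Angpt2, at −3.19 (DESeq2 adjusted p = 0.0350). In the structural sums Ptprb, Flt1 and Tie1 differed by 0.50, 0.37 and 0.05, and Kdr by −1.15 (SE 0.37, edgeR adjusted p = 0.286). In the endothelial sums Ptprb, Flt1, Tie1 and Kdr differed by 0.029, 0.16, −0.042 and 0.23. Of the hyaluronan genes, 0 of 4 passed in the structural sums, with 1 at an unadjusted p under 0.05, and 0 of 2 in the endothelial sums, where the hyaluronidase gene Hyal2 differed by −0.37 and Tmem2 by −0.01. Of the podoplanin partners, 0 of 7 and 0 of 4 passed, with 0 and 1 at an unadjusted p under 0.05, and Cd9 and Msn differed by 0.06 and 0.24 in the endothelial sums. DESeq2 called none of the hyaluronan genes and none of the podoplanin partners. The reelin receptor genes had too few counts to be tested by edgeR.

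Because most Pdpn UMIs were in alveolar macrophages, Pdpn was also compared there, a comparison added after its levels were seen. It was at 6.59, 20.9, 14.2, 22.9 and 50.3 CPM in the B6→B6 mice and 25.6, 28.6 and 50.4 CPM in the HLA→B6 mice. The groups overlapped through B6→B6 replicate 5. The log2 difference was 0.69 (SE 0.42, edgeR adjusted p = 0.305) in a fit that called 12.3% of genes, and DESeq2 gave 0.77 (adjusted p = 0.452). The alveolar macrophage markers Marco, Siglecf and Krt79 fell by 3.68, 1.95 and 3.26 in the same cells (edgeR adjusted p = 0.00424, 0.0214 and 0.0296), 3 of 6 listed where 5.92% of all genes fell, and their part in the Pdpn values was not tested.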

How the data were processed

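Single cells of 8 left lung grafts were measured, 1 library per mouse. The authors deposited a table of whole-number UMI counts per gene and cell and a table of cell labels; their processing notes name Cell Ranger, Seurat and the build mm10 (GRCm38). The study ran SoupX against free RNA, and whether the deposited counts are those before or after this step was not stated. In the count table the HLA→B6 cell names are numbered 2, 3 and 5, and the deposited table of cells assigns them one to one to HLA→B6 replicates 1, 2 and 3, which was followed. The library totals ranged from 1669076 to 12445769 UMIs, and with 5 and 3 mice the exact permutation tests cannot go below p = 0.0179. Cell clusters are the deposited ones. The members and gene lists were chosen with earlier results of these data known.

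Deposited counts were summed per mouse and cluster, for mice with at least 10 cells, and tested with edgeR 4.0.16 (R 4.3.3; TMM, filterByExpr with a minimum count of 10, quasi-likelihood F test), adjusted over all genes tested; a gene was called at an adjusted p under 0.05. DESeq2 1.42.0, no filter, other sets of cells and clusters, blocks and leaving out each mouse were alternatives. Levels are CPM, UMIs scaled to a total of 1000000. Shares at equal depth are expected values after drawing 500 UMIs per cell. The two-sided permutation p-values count the splits of the mice whose absolute difference was at least as large. Doublets were called with Scrublet in scanpy 1.11.5 and kept; cells sharing a barcode were also kept, and both were left out as alternatives. Named genes were the 6 members, every list gene past the threshold, up to 4 genes per pathway list with the highest structural level, and the 3 genes most like each member among those with at least 50 UMIs. The labels do not say more than that each library is another mouse, and p-values measure the spread between these mice. The test scripts were tested on simulated data.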

Additional observations from a re-analysis of the deposited data

Results flagged for a closer look

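Of 20 values looked at within the B6→B6 mice, 3 had a mouse far from the others by Dixon's test, which chance gives in about 1 in 20 groups. The Lyve1 level of cluster 2 was 1749 CPM in B6→B6 replicate 5, above 513 CPM in replicate 1, the next. The Lyve1 level of all structural cells was 1525 CPM in B6→B6 replicate 1 and 335, 338, 483 and 427 CPM in replicates 2 to 5. The share of structural cells with a Prox1 UMI was 0.929% in B6→B6 replicate 1, from 3 of 323 cells, and between 0% and 0.264% in the other B6→B6 mice.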

How the results depend on the processing

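No member passed the threshold in the structural sums or in a single cluster under any alternative run. In the endothelial sums 1 member, Mmrn1, passed without a filter (−1.72), with linked libraries as a block (−2.50) and without B6→B6 replicate 3 (−2.15), and 0 to 1 passed when each mouse was left out; with cluster 9 left out it could not be tested. The count of all genes called in the structural sums was 49, and 98 with DESeq2, 130 without a filter, 79 without clusters 4, 6, 7 and 10, and 10 to 71 when each mouse was left out (10 and 11 without HLA→B6 replicate 1 or 2; 14, 29 and 10 without B6→B6 replicate 2, 3 or 4). In the endothelial sums it was 33, and 150 without a filter, 57 with linked libraries as a block, 95 with clusters 1 and 2 added, chosen after seeing the data, and 14 to 53 when each mouse was left out (17 and 14 without HLA→B6 replicate 1 or 2; 21, 53 and 20 without B6→B6 replicate 1, 3 or 4).

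Some differences that passed no threshold changed sign. For the share of cells with a Lyve1 UMI, the difference without thinning was −4.83 points in cluster 5 and −0.580 in the endothelial sum, and leaving out each mouse gave −0.769 to 8.28 (cluster 0), −2.62 to 8.80 (cluster 5) and −3.43 to 5.23 (the sum). The share with Prox1 ranged from −0.0980 to 0.134 and that with Prox1 and another member from −0.128 to 0.0463. In the structural sums, leaving out each mouse gave log2 differences of −0.12 to 0.44 for Lyve1, −0.054 to 0.32 for Flt4 and −0.22 to 0.86 for Pdpn, and Pdpn was −0.079 in DESeq2 and −0.41 with linked libraries as a block. For Lyve1 the range was −0.43 to 0.10 in the endothelial sums (0.12 with clusters 1 and 2), −0.15 to 0.48 for cluster 0, −0.51 to 0.29 for cluster 1 (0.053 without a filter, 0.41 with at least 20 cells per mouse) and −0.16 to 1.47 for cluster 2 (−0.0095 in DESeq2), and in cluster 4 it was −0.26 with HLA→B6 replicate 1 in the linked set, against 1.24. The cause was not tested.

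Same-numbered mice had correlations of 0.115, 0.0349 and −0.166 in their deviations from the group means. The HLA→B6 replicate numbers 1, 2 and 3 were used for this. The numbers 2, 3 and 5 in the names of the same cells were not tried, so whether mice were paired is not settled. With the replicate number as a block, 10 genes were called in the structural and 53 in the endothelial sums; Flt4 was −0.12 in the structural sums, Lyve1 0.18 in the endothelial sums and 0.12 in cluster 1, and the Fgl2 call in the structural sums was lost (−1.67, edgeR adjusted p = 0.135). The 32 cells of cluster 9 limit every statement on it.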
